A study of Rattus norvegicus with 43 samples.

Results

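The genes described here are 9 rat genes of glucose breakdown and of the response to low oxygen, Slc2a1, Hk2, Pfkp, Pfkl, Pgk1, Ldha, Bnip3, P4ha2 and Vegfa. They were chosen by name from the 14217 genes that probe sets with a single gene symbol represented on the array. The choice was made with earlier results of these data known. A probe set counted for a gene only if the platform annotation gave it that symbol alone, and where a gene had several, that of highest mean across the 43 arrays stood for it. Of the 9 genes, 8 passed the filter on low values and were among the 9095 genes tested, and Hk2 did not pass. RNA came from A7r5 cells, an established line of vascular smooth muscle cells that was derived from embryonic rat aorta, so every group shares this single line and a custom DMEM medium. The medium held folic acid at 2.5 ng/ml (deficient), 10.0 ng/ml (sufficient) or 100.0 ng/ml (excess), and cells were kept in it for 7, 14 or 21 days. At day 7 there were 4 arrays of deficient, 5 of sufficient and 4 of excess medium, and each medium had 5 arrays at days 14 and 21. Separate cultures are not named in the labels, so the p-values rest on a spread between samples that could be purely technical.

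Glycolysis splits glucose into pyruvate in the cytosol and yields ATP without oxygen. Slc2a1 encodes the glucose transporter GLUT1, which lets glucose into the cell. Hk2 encodes hexokinase 2, which traps it as glucose 6-phosphate. Pfkp and Pfkl encode the platelet and liver types of phosphofructokinase, the enzyme of the committed step. Pgk1 encodes phosphoglycerate kinase, which makes ATP, and Ldha encodes the lactate dehydrogenase subunit that favours turning pyruvate into lactate. Bnip3 encodes a mitochondrial protein that marks mitochondria for autophagy. P4ha2 encodes a catalytic subunit of the prolyl hydroxylase that modifies collagen. Vegfa encodes vascular endothelial growth factor A, which smooth muscle cells release towards the endothelium. When oxygen is low, the transcription factor HIF is spared from the oxygen-dependent prolyl hydroxylases of the Egln family and binds hypoxia response elements, and the genes named above are among its textbook targets. Several of them also respond to other signals.

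Values are log2 expression, so a difference of 1 on this scale is a doubling, and a level of one probe set is never set against that of another. Array values lay between 0.84 and 15.01, and values below about 4 are close to background. Genes were called changed at an adjusted p under 0.05 in limma over all 9095 genes. All 9 smooth muscle markers tested passed the filter, with list means between 10.76 and 11.55, whereas of 6 endothelial markers on the array only Vwf passed, and the list means were between 2.60 and 2.92. The sample titles carry a running number that matches the group order as far as 45 but no further, and 11 arrays have higher numbers. The labels do not say what this number stands for, and it is not unique, since 22 stands on 3 sufficient arrays of day 14 and 50 on both an excess array of day 14 and a sufficient array of day 21. There were 3 such arrays against 1 at day 14 and 2 against 2 at day 21 for excess against sufficient medium. The log2 difference between 3' and 5' beta-actin control probe sets, a sign of RNA integrity, reached 2.80 in excess arrays of day 14, against 1.82 in sufficient ones, and 2.79 in excess arrays of day 21, against 1.98 in sufficient ones.

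Promoter windows are shown for Slc2a1, Ldha, Bnip3 and P4ha2 because these members carried the most matches to the core of the hypoxia response element. The windows hold 250 bases before and 50 bases after the annotated transcription start, come from RefSeq with the GRCr8 assembly, and read 5′ to 3′ on the gene's strand. Capitals mark the letters ACGTG or GCGTG, which stand for the core, and their reverse complements CACGT and CACGC. Slc2a1 lies on the plus strand at chr5:138002272-138002571, Ldha on the plus strand at chr1:106507842-106508141, Bnip3 on the minus strand at chr1:203154913-203155212 and P4ha2 on the plus strand at chr10:38743644-38743943.
Slc2a1: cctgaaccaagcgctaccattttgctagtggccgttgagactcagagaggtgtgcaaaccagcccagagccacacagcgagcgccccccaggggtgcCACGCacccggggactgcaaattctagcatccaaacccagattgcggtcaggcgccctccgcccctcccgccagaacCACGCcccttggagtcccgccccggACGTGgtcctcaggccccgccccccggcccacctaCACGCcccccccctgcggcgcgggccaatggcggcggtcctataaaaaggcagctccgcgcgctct
Ldha: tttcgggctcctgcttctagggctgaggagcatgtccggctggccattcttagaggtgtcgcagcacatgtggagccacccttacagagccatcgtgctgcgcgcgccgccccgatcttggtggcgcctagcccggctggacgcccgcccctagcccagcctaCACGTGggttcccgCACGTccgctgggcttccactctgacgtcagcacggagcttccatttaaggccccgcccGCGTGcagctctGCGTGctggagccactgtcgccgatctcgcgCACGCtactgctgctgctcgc
Bnip3: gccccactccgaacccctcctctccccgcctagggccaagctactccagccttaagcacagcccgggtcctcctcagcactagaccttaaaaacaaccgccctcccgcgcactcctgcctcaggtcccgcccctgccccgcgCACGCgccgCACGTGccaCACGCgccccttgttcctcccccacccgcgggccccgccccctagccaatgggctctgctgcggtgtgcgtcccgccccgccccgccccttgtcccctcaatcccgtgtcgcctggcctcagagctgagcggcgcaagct
P4ha2: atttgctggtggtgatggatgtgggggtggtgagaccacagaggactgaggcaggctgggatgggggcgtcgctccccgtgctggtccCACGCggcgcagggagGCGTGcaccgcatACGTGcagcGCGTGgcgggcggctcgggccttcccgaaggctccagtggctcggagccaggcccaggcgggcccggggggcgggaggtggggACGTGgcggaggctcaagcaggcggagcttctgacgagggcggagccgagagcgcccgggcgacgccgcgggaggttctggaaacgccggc
The window of Slc2a1 held 4 matches, that of Ldha 6, that of Bnip3 4 and that of P4ha2 5. Ldha and Bnip3 each held CACGTG, which reads the same on both strands and counts as 2 of the matches. Pfkp and Pfkl held 2 matches each, and Hk2 and the 2 windows of Vegfa held none. Thus 6 of 8 genes with a window had a match, and Pgk1 had no window in the tables used. A match occurred in 41.6% of all 33469 windows of this length and in 62.5% of the 8592 windows of genes tested here, and CACGTG in 6.42% and 9.67% of them, so the members' share was not far above that of tested genes. A match is a description of the letters, and no binding was measured. Bases outside the windows were not searched, so a window without a match does not mean that the gene lacks an element.

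The members were lower in excess folic acid, in larger numbers at the later days. Against sufficient medium, 3 of 8 members were lower in excess medium at day 7, while 2.37% of all genes tested were called there and 2.1% were called lower. At day 14, 8 of 8 were lower, where 41.2% of all genes were called and 18.8% were lower. At day 21, 7 of 8 were lower, where 43.7% were called and 19.3% were lower. No member was called higher on any of these days. Because the members were chosen with earlier results known, these shares describe the set and do not test it. The median log2 difference of the 8 members was -0.41 at day 7, -0.66 at day 14 and -0.68 at day 21, against medians over all genes of -0.06, 0.0064 and 0.032. The values of excess and sufficient arrays did not overlap for 4 of 8 members at day 7, where this held for 4.63% of all genes, and for 8 of 8 at days 14 and 21, where it held for 20.9% and 27.4%. RNA was measured in bulk, so less RNA of a gene in each cell and fewer cells that express it cannot be told apart.

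**Figure D1:**
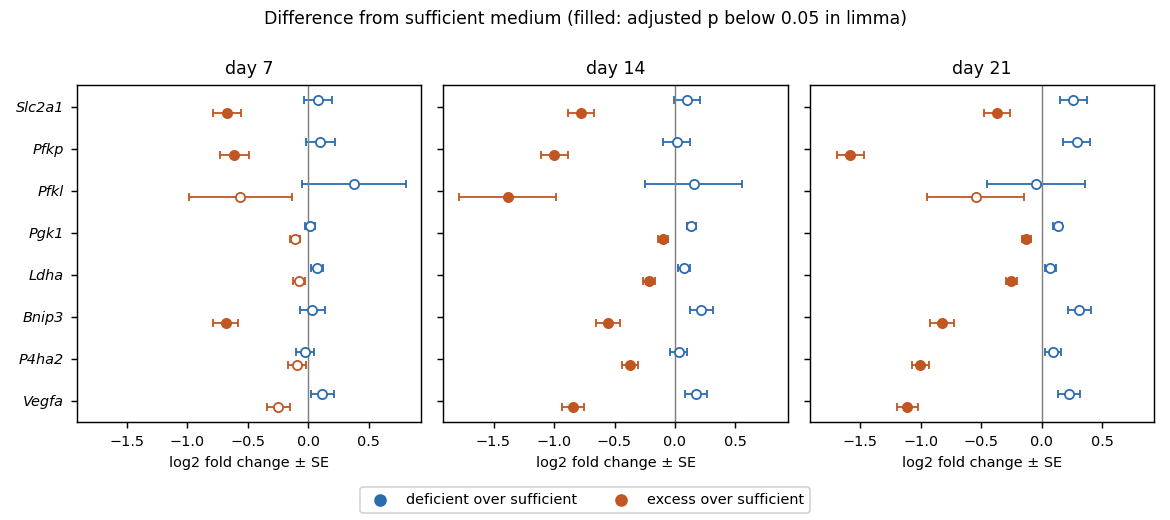
Log2 difference from sufficient medium for the 8 tested genes at days 7, 14 and 21, 1 panel a day, with excess and deficient medium as points of different colour, filled where called in limma, and bars for the standard error of the model. In excess medium every point lies below 0, with Pfkp reaching -1.58 at day 21, and in deficient medium points lie between -0.05 and 0.38.

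Slc2a1, the entry point of glucose, was lower in excess medium at all 3 days, with the smallest difference at day 21. At day 7 the excess arrays read 6.63, 6.95, 6.64 and 6.82, against 7.43, 7.58, 7.72, 7.32 and 7.09 in sufficient arrays. At day 14 the excess arrays read 6.34, 6.39, 6.18, 6.45 and 6.21, against 7.42, 7.04, 6.95, 7.09 and 6.95 in sufficient arrays. At day 21 the excess arrays read 6.53, 6.33, 6.50, 6.63 and 6.21, against 6.85, 6.71, 6.74, 6.88 and 6.87 in sufficient arrays. Every excess array lay below every sufficient array of its day. The log2 differences were -0.67 ± 0.11 at day 7, -0.78 ± 0.11 at day 14 and -0.37 ± 0.11 at day 21 (SE; limma adjusted p = 0.00099, 3.7e-07 and 0.0055). With arrays numbered up to 45 alone, the day 21 difference was -0.32 and missed the threshold at adjusted p = 0.087. The 2 excess arrays with higher numbers at day 21 averaged 6.36, against 6.79 in the 2 sufficient ones.

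Hk2, the next enzyme, stayed near background on every array and its differences between media are not interpreted. Its probe set read between 2.25 and 3.70 over the 43 arrays, with group means between 2.73 in excess medium at day 14 and 3.28 in deficient medium at day 14. The groups overlapped throughout this narrow range. Without the filter, the difference of excess from sufficient medium was -0.32 ± 0.17 at day 14 and -0.14 ± 0.17 at day 21 (SE; limma adjusted p = 0.16 and 0.59). Against deficient medium it was -0.55 ± 0.17 at day 14 and -0.42 ± 0.17 at day 21 and passed (limma adjusted p = 0.012 and 0.048), at levels near background.

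Pfkp, the platelet type of phosphofructokinase, had the largest fall of the members at day 21. Excess arrays of day 21 read 8.09, 7.45, 8.12, 7.73 and 7.97, against 9.31, 9.50, 9.38, 9.43 and 9.64 in sufficient arrays. The highest excess array was more than 1 log2 unit below the lowest sufficient array. The difference was -1.58 ± 0.11, or 2.99-fold lower (SE; limma adjusted p = 1.6e-14). At day 14 excess arrays read 7.97, 8.01, 8.01, 7.71 and 7.92, against 8.93, 8.90, 8.95, 9.04 and 8.79 in sufficient arrays, again without overlap, and the difference was -0.999 ± 0.11 (adjusted p = 4.7e-09 in limma). At day 7 excess arrays read 7.50, 7.63, 7.92 and 8.24, against 8.42, 8.44, 8.52, 8.41 and 8.39 in sufficient arrays, with a difference of -0.61 ± 0.12 (limma adjusted p = 0.0044). The excess arrays of day 7 were spread more widely (SD 0.33, n = 4) than the sufficient ones (SD 0.05, n = 5). Pfkp rose with time in sufficient medium, while its change in excess medium did not pass, as described with the time courses.

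Pfkl, the liver type of the same enzyme, had values in a high and a low range within single groups. In some groups its values fell into both ranges rather than around the group mean. Other groups were tight, such as excess medium at day 14 (SD 0.20, n = 5) and deficient medium at day 21 (SD 0.17, n = 5). Its standard errors were the widest of the members. At day 14 excess arrays read 5.95, 5.70, 5.78, 5.41 and 5.77, against 7.95, 7.96, 7.55, 6.00 and 6.07 in sufficient arrays and 6.03, 8.16, 8.04, 5.98 and 8.08 in deficient arrays. All excess arrays were low at day 14, while the other media held both ranges. The difference from sufficient medium was -1.38 ± 0.40 at day 14 (SE; limma adjusted p = 0.0059). At day 21 all media were mostly low, with excess arrays between 5.46 and 5.86 and sufficient arrays between 5.93 and 7.13, and the difference of -0.54 ± 0.40 did not pass (adjusted p = 0.28 in limma). It passed with these groups fitted alone, where the spread of the other days did not enter (limma adjusted p = 0.04). At day 7 it was -0.56 ± 0.43, and the groups overlapped (limma adjusted p = 0.53).

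The low range of Pfkl followed the running number of the arrays in part. At day 7 the only low arrays were the 2 numbered above 45, at 5.64 in excess medium and 5.87 in sufficient medium, while the 11 arrays numbered up to 45 read between 6.90 and 7.94. At day 14 all 5 arrays numbered above 45 read between 5.70 and 6.00. The arrays numbered up to 45 also held low values, at 6.03 in 1 deficient array, 6.07 in 1 sufficient array and 5.41 and 5.78 in both excess arrays. With arrays numbered up to 45 alone, the difference of excess from sufficient medium at day 14 was -1.79 (limma adjusted p = 0.004), from 2 excess and 4 sufficient arrays. Among arrays with higher numbers at day 14, 3 excess arrays averaged 5.81 and 1 sufficient array read 6.00. With a covariate for numbers above 45, the day 14 difference was -1.08 ± 0.36 (SE; limma adjusted p = 0.017). The call was kept in both fits at different sizes. The covariate takes the same shift for every day, which Pfkl did not have. Medians of arrays up to 45 and above 45 were 7.59 and 5.75 at day 7, and 6.13 and 5.92 at day 21. The size of the day 14 difference is therefore not settled by this fit.

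**Figure D2:**
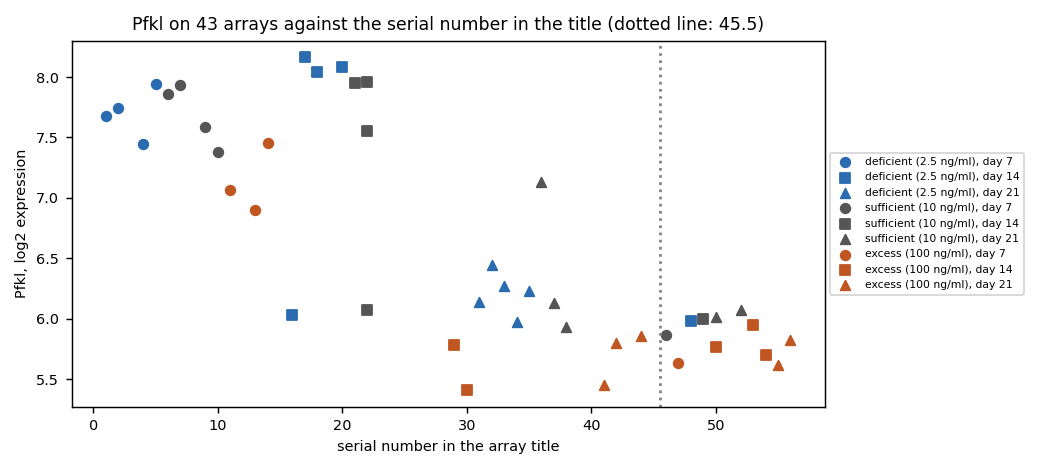
Log2 expression of Pfkl in each of the 43 arrays against the running number in the sample titles, coloured by medium and marked by day. Arrays to the right of the dotted line, numbered above 45, all lie between 5.62 and 6.08, and the arrays to its left span both ranges.

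Pgk1 and Ldha, which make ATP and lactate, changed by small amounts, at levels near the upper end of the array's range. Pgk1 in excess medium read 13.45, 13.45, 13.45, 13.43 and 13.39 at day 14, against 13.53, 13.55, 13.51, 13.49 and 13.57 in sufficient medium. At day 21 it read 13.23, 13.33, 13.25, 13.30 and 13.34 in excess medium, against 13.44, 13.34, 13.49, 13.39 and 13.41 in sufficient medium. The groups did not overlap on either day, although by a narrow margin at day 21. The differences were -0.10 ± 0.04 and -0.13 ± 0.04 (SE; limma adjusted p = 0.035 and 0.0068). After the arrays were normalized by quantiles again they were -0.01 and -0.07 and both calls were lost (limma adjusted p = 0.90 and 0.17). The day 14 call was also lost without sufficient replicate 1, 2 or 5 or excess replicate 6 (adjusted p between 0.056 and 0.080 in limma). It was lost as well without a filter, with a replicate block, with arrays numbered up to 45 alone and with the groups fitted alone (limma adjusted p = 0.059, 0.074, 0.17 and 0.20), and the day 21 call with the groups fitted alone (0.12). A second probe set of Pgk1 that passed the filter differed by -0.28 at day 14 and -0.24 at day 21.

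Ldha was lower in excess medium at days 14 and 21. Excess arrays of day 14 read 12.22, 12.33, 12.24, 12.34 and 12.34, against 12.62, 12.54, 12.46, 12.49 and 12.43 in sufficient arrays. At day 21 excess arrays read 12.39, 12.26, 12.23, 12.26 and 12.20, against 12.54, 12.57, 12.46, 12.53 and 12.49 in sufficient arrays. All excess arrays lay below all sufficient arrays on both days. The differences were -0.21 ± 0.05 and -0.25 ± 0.05 (SE; limma adjusted p = 0.0004 and 3.8e-05), or 1.16-fold and 1.19-fold lower. At day 7 neither gene passed, with -0.11 ± 0.04 for Pgk1 and -0.07 ± 0.05 for Ldha (limma adjusted p = 0.13 and 0.46). With array weights Pgk1 passed at day 7 (limma adjusted p = 0.036), and Ldha did not (0.25).

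Bnip3, the marker of mitochondria for removal, was lower in excess medium at every day. At day 7 excess arrays read 7.97, 7.66, 8.43 and 8.50, against 8.76, 8.87, 8.86, 8.61 and 9.03 in sufficient arrays. At day 14 excess arrays read 8.65, 8.65, 8.68, 8.60 and 8.33, against 9.16, 9.06, 9.03, 9.35 and 9.08 in sufficient arrays. At day 21 excess arrays read 8.46, 8.54, 8.64, 8.70 and 8.53, against 9.36, 9.49, 9.32, 9.42 and 9.38 in sufficient arrays. No excess array reached a sufficient array of its day, and the day 7 excess arrays were the most scattered (SD 0.40, n = 4). The differences were -0.69 ± 0.10, -0.55 ± 0.10 and -0.82 ± 0.10 at days 7, 14 and 21 (SE; limma adjusted p = 0.00044, 2.7e-05 and 1e-08).

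The day 7 calls of Slc2a1, Pfkp and Bnip3 rest on a spread estimated over all 9 groups. With the day 7 excess and sufficient arrays fitted alone, 0 of 8 members passed, and these 3 had limma adjusted p = 0.14, 0.17 and 0.19 at unchanged differences. With any single array left out, 3 members passed at day 7.

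P4ha2, the collagen prolyl hydroxylase subunit, fell late. At day 7 excess arrays read 10.05, 10.20, 10.12 and 10.48, against 10.30, 10.27, 10.34, 10.29 and 10.33 in sufficient arrays, and the groups overlapped. At day 14 excess arrays read 9.78, 9.90, 10.05, 9.86 and 9.99, against 10.28, 10.34, 10.25, 10.37 and 10.22 in sufficient arrays. At day 21 excess arrays read 9.09, 8.81, 8.95, 9.00 and 9.16, against 9.82, 9.97, 10.13, 9.97 and 10.13 in sufficient arrays. The excess arrays lay below the sufficient ones without overlap at days 14 and 21. The differences were -0.09 ± 0.07, -0.37 ± 0.07 and -1.001 ± 0.07 at days 7, 14 and 21, the last a 2.00-fold fall (SE; limma adjusted p = 0.54, 3.7e-05 and 4.6e-15). A second P4ha2 probe set, at a mean of 4.20 and thus near background, differed by 0.05, -0.30 and -0.40 on these days.

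Vegfa, the secreted growth factor, also moved apart between the media over time. At day 7 excess arrays read 9.08, 9.29, 9.21 and 8.99, against 9.52, 9.42, 9.42, 9.46 and 9.15 in sufficient arrays, with overlap through a single sufficient array. At day 14 excess arrays read 9.17, 8.89, 8.95, 8.84 and 8.92, against 9.93, 9.81, 9.91, 9.69 and 9.65 in sufficient arrays. At day 21 excess arrays read 8.65, 8.62, 8.65, 8.53 and 8.19, against 9.69, 9.35, 9.70, 9.75 and 9.68 in sufficient arrays. The gap between the groups was clear of overlap at days 14 and 21. The differences were -0.25 ± 0.09, -0.84 ± 0.09 and -1.11 ± 0.09, the last a 2.16-fold fall (SE; limma adjusted p = 0.15, 9.4e-10 and 4.4e-13). With arrays numbered up to 45 alone, the day 7 difference passed (limma adjusted p = 0.038). The second Vegfa probe set differed by 0.12, -1.18 and -0.77.

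**Figure D3:**
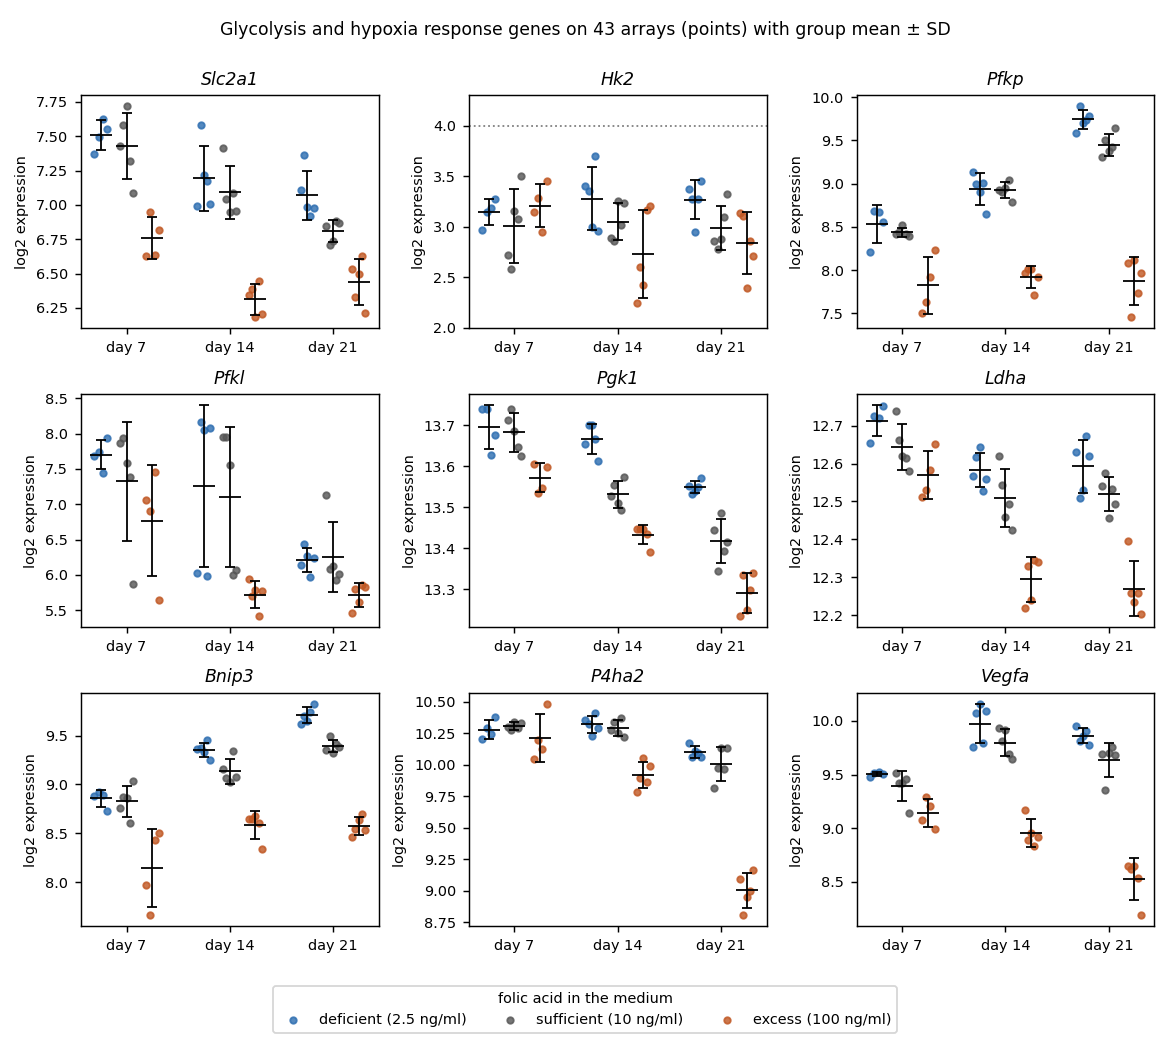
Log2 expression of each of the 9 genes in every array, by day and by medium in order of folic acid, with bars for the group mean ± SD, and a dotted line at the filter level of 4 for Hk2. Excess arrays lie below the other media for 8 genes at day 14 and at day 21, and Hk2 lies below the line on every array.

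The differences at days 14 and 21 were set beside the beta-actin 3'-5' difference and the array number. With the beta-actin difference as a covariate, 8 members at day 14 and 7 at day 21 were again lower in limma. Without the 3 arrays of highest beta-actin difference, a choice made after seeing the data, and likewise with the covariate for numbers above 45, 7 were lower at day 14 and 7 at day 21, since Pgk1 lost its day 14 call (limma adjusted p = 0.064 and 0.062). With arrays numbered up to 45 alone, 7 were lower at day 14, where Pgk1 missed the threshold (limma adjusted p = 0.17). In that fit 6 were lower at day 21, where Slc2a1 and Pfkl missed it (limma adjusted p = 0.087 and 0.22). At each of these days 2 excess arrays had a beta-actin difference no higher than the highest sufficient array. Both lay below all sufficient arrays for all 8 members. Since no excess array overlapped the sufficient ones on these days, any 2 excess arrays would do so, and this adds nothing on RNA integrity. Among arrays numbered above 45, the excess mean was below the sufficient one for 8 of 8 members at days 14 and 21. The lack of overlap fixed that outcome too, so it says nothing about the array number. At day 7 the excess value was below the sufficient one for 6 of 8 members, from 1 array a group.

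Excess medium was also set against deficient medium, a contrast that shares its excess arrays with the one above. It was lower for 4 of 8 members at day 7, where 5% of all genes were called and 4.04% were lower. It was lower for 8 of 8 at day 14, where 40.3% were called and 16.9% were lower, and for 7 of 8 at day 21, where 50.9% were called and 22.4% were lower. Pfkp had the largest difference at day 21, with -1.87 ± 0.11 (SE; limma adjusted p = 7.1e-17). Vegfa followed with -1.33 ± 0.09, Bnip3 with -1.13 ± 0.10 and P4ha2 with -1.10 ± 0.07. Slc2a1 differed by -0.63 ± 0.11, Ldha by -0.32 ± 0.05 and Pgk1 by -0.26 ± 0.04, whereas Pfkl at -0.50 ± 0.40 did not pass (adjusted p = 0.31 in limma). With the groups fitted alone Pfkl passed (limma adjusted p = 0.0013). At day 7 Vegfa was the fourth member called, with -0.36 ± 0.10 (limma adjusted p = 0.026). That call was lost without deficient replicate 2, 5 or 6 or excess replicate 1 or 6, at adjusted p between 0.063 and 0.083 in limma. With the mean of its probe sets the difference was -0.22 and did not pass (limma adjusted p = 0.32). With the day 7 excess and deficient arrays fitted alone, 2 members passed. With array weights Pgk1 and Ldha also passed at day 7 (limma adjusted p = 0.018 and 0.014).

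No member passed in deficient medium. Against sufficient medium 0 of 8 members passed in limma at day 7, where 0% of all genes were called, at day 14, where 0.088% were called, and at day 21, where 0.781% were called. At an unadjusted p under 0.05 in limma the members numbered 0 at day 7, where 6.06% of all genes did so, 2 at day 14 (8.65%) and 5 at day 21 (12.3%). These members were all higher in deficient medium, as were 3.64% of all genes at day 14 and 5.66% at day 21. The values nonetheless did not overlap for 4 of 8 members at day 21, where this held for 4.39% of all genes and in the higher direction for 2.23%. It held for 1 of 8 at day 14 (1.88% of all genes) and for 0 of 8 at day 7 (2.42%).

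At day 21 the 4 members without overlap were Slc2a1, Pgk1, Bnip3 and Vegfa, each with higher values in deficient medium. Bnip3 read 9.62, 9.70, 9.65, 9.75 and 9.82 in deficient arrays, against 9.36, 9.49, 9.32, 9.42 and 9.38 in sufficient arrays, a difference of 0.31 ± 0.10 (SE; limma adjusted p = 0.14). Slc2a1 read 7.11, 7.37, 6.98, 6.92 and 6.98 in deficient arrays, against 6.85, 6.71, 6.74, 6.88 and 6.87 in sufficient arrays, a difference of 0.26 ± 0.11 (limma adjusted p = 0.28). Vegfa read 9.95, 9.81, 9.86, 9.90 and 9.78 in deficient arrays, against 9.69, 9.35, 9.70, 9.75 and 9.68 in sufficient arrays, a difference of 0.23 ± 0.09 (limma adjusted p = 0.26). The deficient arrays lay above the sufficient ones without overlap for each of these genes, although no difference passed over all genes tested.

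Pgk1 at day 21 differed by 0.13 ± 0.04 (SE; limma adjusted p = 0.092), with deficient arrays between 13.53 and 13.57 and sufficient arrays between 13.34 and 13.49. It passed with array weights, with a trended and robust variance, and with the mean of its probe sets (limma adjusted p = 0.011, 0.013 and 0.0072). Bnip3 passed with array weights, with a covariate for array numbers above 45 and with the groups fitted alone (limma adjusted p = 0.026, 0.03 and 0.043), and Pfkp, at 0.29 ± 0.11 and adjusted p = 0.25, passed with that covariate at 0.043. P4ha2 and Ldha differed by 0.10 ± 0.07 and 0.07 ± 0.05, and Pfkl by -0.05 ± 0.40. Between day 21 and day 7 the change of the effect of deficient medium passed for 0 of 8 members (0.044% of all genes were called), and 1 member had an unadjusted p under 0.05 in limma, as did 10.8% of all genes, so that count was near the background.

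With time in culture some members rose and others fell, in each of the 3 media. From day 7 to day 21, 8 of 8 members changed in deficient medium and 8 of 8 in sufficient medium, each with 3 higher and 5 lower. Of all genes, 64.8% were called in deficient medium, 30.7% higher and 34.1% lower, and 62.6% in sufficient medium, 29.6% higher and 33.1% lower. In excess medium 7 of 8 changed, 1 higher and 6 lower, where 60% of all genes were called, 34.6% higher and 25.4% lower. Most genes tested changed with time, and the members' counts are read against that share.

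Pfkp rose with time in deficient and sufficient medium. At day 21 it averaged 9.74 ± 0.11 in deficient medium, against 8.53 ± 0.22 at day 7 (SD, n = 5 and 4), a difference of 1.21 ± 0.12 (SE; limma adjusted p = 2.8e-11). In sufficient medium it was 9.45 ± 0.13 at day 21, against 8.44 ± 0.05 at day 7 (SD, n = 5 each), a difference of 1.02 ± 0.11 (limma adjusted p = 5.2e-10). In excess medium it was 7.87 ± 0.28 at day 21, against 7.82 ± 0.33 at day 7 (SD, n = 5 and 4), a difference of 0.05 ± 0.12 that did not pass (limma adjusted p = 0.75). Values of day 21 and day 7 overlapped in excess medium alone.

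Vegfa turned its direction by medium. It was higher at day 21 than at day 7 by 0.35 ± 0.09 in deficient and by 0.24 ± 0.09 in sufficient medium (SE; limma adjusted p = 0.0013 and 0.017), and in excess medium it fell by 0.62 ± 0.09 (limma adjusted p = 6.4e-07). The call in sufficient medium was lost without day 7 replicate 6 or day 21 replicate 4 (limma adjusted p = 0.081 and 0.051), and with the mean of its probe sets, at a difference of 0.18 (0.16). P4ha2 fell in all 3 media, by 0.18 ± 0.07 in deficient, 0.30 ± 0.07 in sufficient and 1.21 ± 0.07 in excess medium. Bnip3 was higher at day 21 in all 3 media, by 0.85 ± 0.10, 0.57 ± 0.10 and 0.43 ± 0.10 in deficient, sufficient and excess medium.

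The other members fell with time in each medium. Slc2a1 fell by 0.44 ± 0.11, 0.62 ± 0.11 and 0.32 ± 0.11 in deficient, sufficient and excess medium (SE; limma adjusted p = 0.0011, 4.7e-06 and 0.016). Pgk1 fell by 0.15, 0.27 and 0.28 and Ldha by 0.12, 0.12 and 0.30. Pfkl fell by 1.49, 1.07 and 1.05, from values in the high range at day 7 except on the 2 arrays numbered above 45. Single arrays ended some of these calls. In deficient medium Ldha lost its call without day 7 replicate 2, 5 or 6 or day 21 replicate 3 or 4 (limma adjusted p between 0.061 and 0.094). P4ha2 lost it there without day 7 replicate 2 or 6 or day 21 replicate 3 or 6 (0.056 to 0.11), and with the mean of its probe sets, where the difference was -0.07 (0.34). In sufficient medium Pfkl lost it without day 7 replicate 1 or 2 (0.058 and 0.062) and Ldha without day 7 replicate 1 or day 21 replicate 3 (0.076 and 0.059). In excess medium Pfkl lost it without day 7 replicate 1, 3 or 4 or day 21 replicate 1 or 3 (0.053 to 0.13) and Slc2a1 without day 7 replicate 3 or day 21 replicate 5 (0.079 and 0.058). With the groups fitted alone Ldha lost it in deficient and sufficient medium (0.069 and 0.079), and in deficient medium also with a replicate block (0.081). In excess medium Slc2a1 lost it with arrays numbered up to 45 alone (0.16) and Pfkl without the 3 arrays of highest beta-actin difference (0.06).

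The change of the excess effect with time was tested as an interaction. Between day 21 and day 7 the effect of excess medium became lower for 3 of 8 members, where 24.5% of all genes were called and 7.53% were lower. These were Pfkp at -0.97 ± 0.16, P4ha2 at -0.91 ± 0.10 and Vegfa at -0.86 ± 0.13 (SE; limma adjusted p = 2.6e-05, 5.9e-09 and 3.7e-06). Slc2a1, at 0.30 ± 0.16, did not pass (adjusted p = 0.16 in limma), and Bnip3 at -0.13 ± 0.14 and Pgk1 at -0.02 ± 0.06 did not pass either. Ldha, at -0.17 ± 0.07 and adjusted p = 0.056, passed without sufficient day 7 replicate 1, sufficient day 21 replicate 3 or excess replicate 1 of day 7 or 21 (limma adjusted p between 0.021 and 0.047). Ldha also passed with the covariate for numbers above 45 and with array weights (limma adjusted p = 0.049 and 0.042).

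Between day 14 and day 7 the excess effect changed for 2 of 8 members, where 18.4% of all genes were called and 4.67% were lower. Vegfa was at -0.59 ± 0.13 and P4ha2 at -0.28 ± 0.10 (SE; limma adjusted p = 0.0013 and 0.045). The P4ha2 call was lost without sufficient replicate 1, 2, 5 or 6 of day 7, excess replicate 3 or 6 of day 7, sufficient replicate 1, 2, 3 or 4 of day 14 or excess replicate 1, 3 or 5 of day 14, at limma adjusted p between 0.051 and 0.14. It was also lost without a filter, with array weights, with the groups fitted alone, with the beta-actin covariate, without the 3 arrays of highest beta-actin difference and with arrays numbered up to 45 alone, where the difference was -0.14 (0.42). Pfkp, at -0.38 ± 0.16 and adjusted p = 0.097, passed without excess day 7 replicate 1 (0.039) and with the covariate for numbers above 45 (0.034). Pfkl, at -0.82 ± 0.59 and adjusted p = 0.34, passed with array weights, at -1.24 (limma adjusted p = 0.045). The contrasts at both intervals share the day 7 arrays.

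The order of group means differed between members. For Bnip3 the 3 excess groups held the lowest ranks, and deficient medium at day 21 the highest, at 9.71 ± 0.08 (SD, n = 5), clear of sufficient medium at day 21 at 9.39 ± 0.07 (SD, n = 5). The next groups, deficient medium at day 14 at 9.35 and sufficient medium at day 14 at 9.13, overlapped with their neighbours above. P4ha2 was lowest in excess medium at day 21, at 9.00 ± 0.14 (SD, n = 5). Over the 43 arrays Pfkp and Bnip3 correlated at r = 0.92, and at 0.44 within groups. Slc2a1 and Ldha correlated at r = 0.84 over all arrays and at 0.30 within groups, and Pgk1 and P4ha2 at 0.80 and -0.06. Pfkp and Pfkl, which encode types of one enzyme, correlated at 0.07 over all arrays and at -0.28 within groups. These arrays share groups and normalization, so the values describe this table alone.

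Genes outside the set had closely similar profiles. With the mean standardized profile of the 8 members over 43 arrays, Map2k1 correlated at r = 0.94, Gadd45a, Serpinb6a and Slc3a2 at 0.92, and Ablim3 at 0.917. The lowest correlations were those of Syne1 and Ctdsp2, at -0.89, and Nr2f2, at -0.885.

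The other glycolytic enzymes moved in part with the members. Of 18 in the list, 11 were tested. Over all genes, 0.275% were called higher at day 7, 22.3% at day 14 and 24.4% at day 21 in excess against sufficient medium, beside the shares called lower given above (2.1%, 18.8% and 19.3%), and the lists below are read against these shares. In excess against sufficient medium 0 were called at day 7, 7 were lower and 0 higher at day 14, with a median of -0.39, and 5 were lower and 2 higher at day 21, with a median of -0.21. Eno2, the neuronal type of enolase, differed by -0.78 ± 0.14 at day 14 and -0.64 ± 0.14 at day 21 (SE; limma adjusted p = 3.3e-05 and 0.00033). Aldoa, the aldolase of muscle, differed by -0.44 ± 0.08 and -0.30 ± 0.08. Hk1, the widespread hexokinase, differed by -0.62 ± 0.15 and Pfkfb3, which makes the activator of phosphofructokinase, by -0.41 ± 0.10, both at day 14. Pfkm, the muscle type of phosphofructokinase, was higher at day 21 by 0.65 ± 0.11, and Eno3, the muscle type of enolase, by 0.53 ± 0.09 (limma adjusted p = 4.8e-06 and 4.6e-06). In deficient against sufficient medium 0 of 11 were called on each of the 3 days.

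Of 15 tested genes of glucose and lactate transport and pyruvate fate, 1 was higher and 1 lower at day 7, 3 were higher and 4 lower at day 14, and 4 were higher and 9 lower at day 21 in excess against sufficient medium. The counts of day 14 and the count of higher genes at day 21 were near the shares over all genes. Txnip, an arrestin-family protein that limits glucose uptake, was higher by 2.97 ± 0.14 at day 14 and 1.59 ± 0.14 at day 21, and its relative Arrdc4 by 1.77 ± 0.13 and 1.55 ± 0.13 (SE). Mpc1, a subunit of the mitochondrial pyruvate carrier, differed by -0.82 ± 0.07 at day 21, and Slc16a7, a monocarboxylate transporter, by 0.44 ± 0.11 and 0.74 ± 0.11. Pdk1, the kinase that shuts pyruvate out of oxidation, differed by -0.45 ± 0.09 at day 7 (limma adjusted p = 0.0057). In deficient against sufficient medium Txnip was the only gene of this list called, at -1.14 ± 0.14 at day 14 and -1.58 ± 0.14 at day 21. Of 6 tested genes of the pentose phosphate pathway, 3 were lower at day 14 and 2 lower and 1 higher at day 21 in excess medium, with Pgd at -0.67 ± 0.14 and -0.36 ± 0.14.

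Among oxygen sensors and HIF subunits 5 of 9 were tested. Egln3, a prolyl hydroxylase that is itself a target of HIF, was lower in excess medium, with differences of -0.69 ± 0.13 at day 14 and -0.93 ± 0.13 at day 21 (SE; limma adjusted p = 3.3e-05 and 1.3e-07). Egln2 was higher at day 21 by 0.38 ± 0.13, and Hif1a did not pass, at 0.01 ± 0.05 and -0.11 ± 0.05 (limma adjusted p = 0.85 and 0.084). Of the 23 other hypoxia response genes tested, of 31 listed, 1 was higher and 1 lower at day 7, 2 were higher and 8 lower at day 14, with a median of -0.17, and 3 were higher and 11 lower at day 21, with a median of -0.24. Gys1, muscle glycogen synthase, differed by -1.08 ± 0.25 at day 14, Mif by -0.64 ± 0.09 at day 14, and Hmox1, heme oxygenase 1, by -0.67 ± 0.09 and -0.78 ± 0.09. Car9, a carbonic anhydrase, differed by -0.88 ± 0.11 at day 21. Adm, which encodes the vasodilator adrenomedullin, went the other way, at 0.80 ± 0.10 and 0.91 ± 0.10, and Ddit4 was higher by 0.65 ± 0.11 at day 21. Hypoxia response genes thus did not all move with the members.

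**Figure D4:**
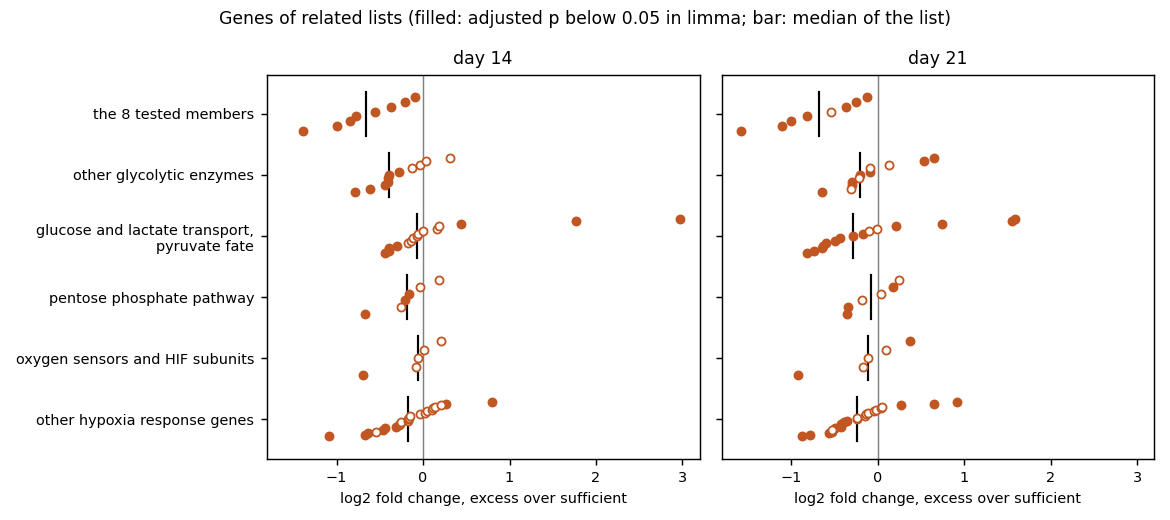
Log2 difference of excess from sufficient medium at days 14 and 21 for each tested gene of the 5 related lists and of the members, with filled points for genes called in limma and a bar for the list median. The members lie below 0, while the other lists hold genes on both sides, Txnip highest at 2.97.

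Other gene groups moved in the same arrays, and their part in the members' differences was not tested. All 10 markers of mitosis and replication were higher in excess medium at days 14 and 21, with medians of 0.96 and 1.05. Their list mean lay between 9.81 and 9.92 in excess arrays of day 14, against 8.66 to 8.84 in sufficient arrays, and between 9.32 and 9.41 in excess arrays of day 21, against 8.27 and 8.38 in sufficient arrays. Of 11 tested genes of the integrated stress response, 10 were lower at day 14 and 9 at day 21, with Ddit3 at -1.79 ± 0.11 and -1.54 ± 0.11 and Trib3 at -1.73 ± 0.13 and -1.46 ± 0.13 (SE). Of 9 smooth muscle markers, 5 were lower and 0 higher on each day, and of 7 tested skeletal and cardiac muscle markers 4 were lower on each day, with 1 higher at day 14 and 2 at day 21, where 18.8% and 19.3% of all genes were lower and 22.3% and 24.4% higher. Myh3 was at -1.17 ± 0.12 and -2.12 ± 0.12. Their list means were between 10.81 and 10.91 in excess arrays of day 21, against 11.22 to 11.55 in sufficient arrays, for smooth muscle, and between 5.44 and 5.52, against 5.89 to 6.03, for skeletal and cardiac muscle. Of 6 macrophage and 6 epithelial markers 1 each passed the filter, Cd14 and Krt8, with Cd14 at 0.64 ± 0.18 and Krt8 at -0.76 ± 0.08 at day 21.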

How the data were processed

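Total RNA of A7r5 cells was hybridised to Affymetrix Rat230_2 arrays, and the deposited table holds log2 values of 31099 probe sets. Per the submitters' processing notes the authors made them with GCRMA, which corrects background by probe sequence, normalizes by quantiles and summarizes probes. Its version is not given in the sources used here. Array medians lay between 3.658 and 3.725, and replicate arrays correlated at 0.991 to 0.998. The number of arrays limits the precision.

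The members and the other gene lists (12 lists in all) were chosen with earlier results of these data known. Groups and replicate numbers came from sample titles. Probe sets were named from the platform annotation, 20832 with 1 symbol, 436 with several and 9831 with none. A probe set passed if its log2 value exceeded 4 in at least 4 arrays, and the passing probe set with the highest mean stood for the gene. Limma 3.58.1 in R 4.3.3 fitted 1 mean for each of 9 groups over 43 arrays (34 residual degrees of freedom), tested 15 comparisons two-sided and adjusted p by Benjamini-Hochberg over 9095 genes. Errors of differences are standard errors of the model, and those of levels are SDs. Named genes were all members, up to 4 called genes per list and comparison with the largest change, and the 5 genes with the highest and 3 with the lowest correlation with the members. Besides these, Hif1a was named after its values were seen. The model was tested on simulated data. Alternatives were other filters, all probe sets, array weights, other variance settings, quantile normalization, covariates for title numbers above 45 and for beta-actin, a replicate block, the compared groups alone and leaving out arrays.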

Additional observations from a re-analysis of the deposited data

Results flagged for a closer look

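In 9 of 81 sets of a gene in a group, 1 array stood apart from the others of its group by Dixon's criterion, and chance marks about 1 set in 20. For Pfkp, replicate 5 of excess day 14 read 7.71, where the others read 7.92 to 8.01. For Pfkl, replicate 6 of sufficient day 7 read 5.87, where the others read 7.38 to 7.93, and replicate 1 of sufficient day 21 read 7.13, where the others read 5.93 to 6.13. For Pgk1, replicate 6 of excess day 14 read 13.39, where the others read 13.43 to 13.45. The same array read 8.33 for Bnip3, where the others read 8.60 to 8.68. For Ldha, replicate 1 of excess day 21 read 12.39, where the others read 12.20 to 12.26. For Vegfa, replicate 6 of sufficient day 7 read 9.15 (others 9.42 to 9.52), replicate 2 of sufficient day 21 read 9.35 (others 9.68 to 9.75) and replicate 5 of excess day 21 read 8.19 (others 8.53 to 8.65). Each low Vegfa array was numbered above 45. The 4 arrays numbered 46 to 49, each in a different group, differed from their group means by -0.25 to -0.11 for Vegfa. For Bnip3 they differed by 0.10 to 0.36, for P4ha2 by 0.03 to 0.27 and for Pfkl by -1.46 to -1.11. For Slc2a1, Pfkp, Pgk1 and Ldha they lay on both sides of the group means.

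The effect of excess medium differed between days for 3 members in the interaction test. Between day 14 and day 7 it changed by -0.59 for Vegfa and -0.28 for P4ha2. Between day 21 and day 7 it changed by -0.97 for Pfkp, -0.91 for P4ha2 and -0.86 for Vegfa.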

How the results depend on the processing

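Of 65 called member comparisons, 48 kept call and sign under every alternative that was run, and 17 lost the call under at least 1. None was reversed, and 60 of 2808 recomputed member values changed sign without being called. In deficient against sufficient medium, 1 member passed at day 14 with array weights and 1 with a trended and robust variance. At day 21, 1 passed with the mean of all probe sets, 2 with array weights, 1 with a trended and robust variance, 2 with a covariate for array numbers above 45 and 1 with the groups fitted alone. With the groups fitted alone, 0 members passed for excess against sufficient and 2 for excess against deficient medium at day 7. For the excess effect between day 14 and day 7, 1 member passed without a filter, with arrays numbered up to 45, with the beta-actin covariate, with the groups fitted alone and when 3 arrays of high beta-actin difference were left out, the last chosen after seeing the data.

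Leaving out 1 array at a time gave 0 to 0 members for deficient against sufficient medium at each day. For excess against sufficient medium it gave 3 to 3, 7 to 8 and 7 to 7 at days 7, 14 and 21, and for excess against deficient medium 3 to 4, 8 to 8 and 7 to 7. For day 21 against day 7 it gave 6 to 8 in deficient, 6 to 8 in sufficient and 5 to 7 in excess medium. The interactions gave 0 to 0 for deficiency, and 1 to 3 and 3 to 4 for excess at days 14 and 21.

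No pairing of the arrays by replicate number was seen. The deviations of same-numbered arrays had a median correlation of -0.01 over 133 pairs, and 94 pairs were below 0.1. Arrays of different numbers had a median of 0.004 over 688 pairs, and 490 were below 0.1. With the number as a block, 7 members passed for excess against sufficient medium at day 14 and 7 for day 21 against day 7 in deficient medium, against 8 each without it.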
